A study of Mus musculus with 4 samples.

Results

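The 10 miRNAs described here are the mouse assays for the epithelial miR-200, miR-203, miR-205 and miR-183 families, taken by name, with the passenger strand assays (names ending in *) left out, from the 517 mouse miRNA assays of the cards. Levels were measured with TaqMan low density arrays, cards of 384 dried real-time PCR assays, in 2 samples of control BASCs and 2 samples of c-Myc depleted BASCs. BASCs (bronchoalveolar stem cells) were sorted from the lungs of ICR mice aged 4 to 6 weeks as CD31neg, CD45neg, CD34pos and ScaIpos cells, and the sorted cells were first grown on irradiated mouse embryonic fibroblasts before they were passaged, for which the sources name both collagen and fibroblasts. The control samples are labelled only as control BASC cells. The study calls its comparison group wild type and also describes a negative control vector, and which of these the control samples were is not stated in the labels. The depleted samples came from stable lines made with lentiviral c-Myc shRNA and puromycin selection. Which shRNA each sample carried is not stated, nor is whether the 2 samples of a group were separate cultures, so p-values measure only the spread between these samples, which may be technical. The readout of a well is its CT, the PCR cycle number at the detection threshold, so that a lower CT means more RNA and 1 cycle is 1 unit on a log2 scale. Samples are called control 1, control 2, depleted 1 and depleted 2 after their replicate numbers. A CT below 35 counted as detected, which is the limit in the methods of the study.

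MiRNAs are short RNAs that guide the silencing complex to mRNAs, mostly through the seed, the bases from position 2 to 8. The miR-200 family is the classical epithelial miRNA family. It represses Zeb1 and Zeb2, transcription factors that switch off E-cadherin, and its members are high in epithelia and low in fibroblasts. MiR-203 restrains the progenitors of the epidermis, miR-205 is typical of basal cells of layered epithelia, and the miR-183 cluster is best known from sensory organs such as the inner ear, where miR-96 is needed for hearing.

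The mature sequences show which members can share targets. All 10 members matched a mature RefSeq miRNA (build GRCm38.p6), with the arm taken from the older naming of the assays, in which the name without * stands for the main arm. The seed is in capitals, and the prefix mmu, for mouse, is left out elsewhere. MiR-200b, miR-200c and miR-429 share 1 seed, and miR-200a and miR-141 share another that differs from it at 1 of 7 bases:
mmu-miR-200b: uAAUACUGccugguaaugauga
mmu-miR-200c: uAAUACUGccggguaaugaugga
mmu-miR-429: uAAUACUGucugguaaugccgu
mmu-miR-200a: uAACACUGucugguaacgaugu
mmu-miR-141: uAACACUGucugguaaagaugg
MiR-200b and miR-200c differ at 2 of 22 bases compared from the 5′ end, and so do miR-200a and miR-141. The members of the miR-183 cluster have 3 related seeds, and that of miR-96 differs at 1 base from each of the others:
mmu-miR-183: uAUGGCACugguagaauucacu
mmu-miR-96: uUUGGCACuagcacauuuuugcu
mmu-miR-182: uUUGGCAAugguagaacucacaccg
MiR-203 and miR-205 have seeds of their own:
mmu-miR-203: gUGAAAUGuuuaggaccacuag
mmu-miR-205: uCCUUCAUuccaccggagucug

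The 10 hairpins lie at 5 places in GRCm38.p6. Mir200b, Mir200a and Mir429 lie within 1846 bases on the minus strand of chromosome 4 (chr4:156053905-156055750). Mir200c and Mir141 lie within 477 bases on the minus strand of chromosome 6 (chr6:124717914-124718390). Mir183, Mir96 and Mir182 lie within 3820 bases on the same strand of that chromosome (chr6:30165918-30169737). Mir203 is at chr12:112130880-112130955 on the plus strand, and Mir205 is at chr1:193507463-193507530 on the minus strand, each with no other member beside it. The miRNAs that share a seed are thus spread over both miR-200 clusters, while each of the 3 clusters is usually described as coming from a common precursor.

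The epithelial families were near the detection limit in these cells, apart from miR-182. One or more samples gave a CT below 35 for 8 of the 10 members, against 50.9% of all 517 mouse miRNAs, and all 4 samples did for 3 members, against 36.6%. The 3 members seen throughout were miR-182, miR-183 and miR-200c. Control 1 held 8 detected members, control 2 held 4, and depleted 1 and 2 held 4 and 3. Without control 1, 5 members remained detected. Each sample had from 334 to 351 of 768 wells with a CT. All 10 members are on card A with 1 well each, so no member had a repeat well within a sample.

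**Figure D1:**
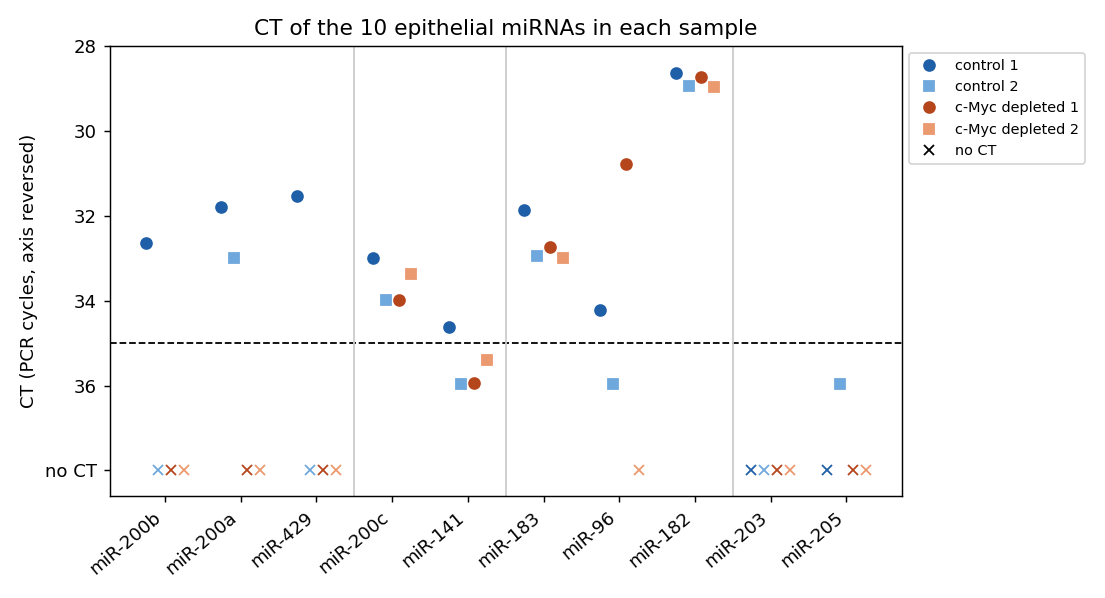
CT (PCR cycles, axis reversed so that more RNA is higher) of each of the 10 members in the 4 samples, grouped by genomic cluster; the dashed line is the limit of 35, and crosses are wells with no CT. MiR-182 lies near a CT of 29 in all samples, the chr4 cluster has values in control samples alone, and miR-203 has no CT anywhere.

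The chr4 cluster, miR-200b, miR-200a and miR-429, was measured in control samples and gave no CT in either depleted sample. MiR-200a had a CT of 31.80 in control 1 and 33.003 in control 2. MiR-200b had a CT of 32.64 and miR-429 a CT of 31.54 in control 1, and neither gave a CT in control 2. Of the 6 values of the cluster per group, 4 were below 35 in controls and 0 in depleted samples. The controls therefore differed from each other in 2 of the 3 members, and miR-200a alone was present in both.

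MiR-200a was 1 of 3 mouse miRNAs, or 0.58% of all 517, that were below 35 in both controls and in no depleted sample. The others were miR-204, with CT 33.0 and 33.5 in the controls, and miR-875-5p, with 33.9 and 31.8. The opposite pattern, below 35 in both depleted samples and in no control, was seen for 5 miRNAs (0.967%) and for none of the members. The pattern of miR-200a is read from the same wells as its level, so it is a description of these 4 samples.

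To set the level of miR-200a against the input, the average of the 4 U6 wells of that card was subtracted (ΔCT, in cycles). The ΔCT was 12.9 and 13.9 in controls 1 and 2, and at the ceiling of 35 it was 16.1 and 16.2 in depleted 1 and 2. With depleted wells at that ceiling, the level after depletion was at least 6.73-fold lower than the control mean, a bound that depends on where the ceiling is set. With a ceiling of 32, which is above only 1 of the 2 control values, the log2 change was -0.25 instead of -2.75. MiR-200a lay above the ΔCT limit of 10 that the study set for testing and was not in the main test. In limma over all 263 detected miRNAs its log2 change had a standard error of 0.42. The adjusted p in that fit was 0.0956 and did not pass. Both depleted values were the ceiling, so their SD of 0.0154 comes from U6 alone. The p-value thus measures no spread of miR-200a between the depleted samples.

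The other miR-200 cluster, miR-200c and miR-141, was measured in both groups. The CT of miR-200c was 32.99 in control 1 and 33.99 in control 2, against 33.98 in depleted 1 and 33.38 in depleted 2. Its ΔCT was 14.5 ± 0.557 (SD, n = 2) in controls and 14.8 ± 0.409 (SD, n = 2) after depletion. The groups overlapped, and the log2 change of -0.34 was smaller than the difference between the control samples, 0.788. In limma over all detected miRNAs the adjusted p was 0.703. Without control 1 its change was 0.05, of the opposite sign.

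MiR-141 gave a CT in every sample, but only that of control 1, 34.62, was below 35. The other values were 35.96 in control 2, 35.94 in depleted 1 and 35.41 in depleted 2. The pair shows a higher signal for miR-200c than for miR-141 in each sample. Assays differ in efficiency, so an order of levels between miRNAs is a description of the signals.

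In the miR-183 cluster, miR-182 was the most abundant member of all 10. Control 1 had a CT of 28.64 and control 2 of 28.95, depleted 1 of 28.74 and depleted 2 of 28.98, so the groups overlapped. It ranked 64 of the 263 detected mouse miRNAs by mean CT. By the formula of the methods, which converts CT to copies with a synthetic miRNA as standard, controls had 103 ± 15.5 copies of miR-182 per cell (SD, n = 2) and depleted BASCs had 99.0 ± 11.7 (SD, n = 2). A CT of 35 corresponds to 1.43 copies per cell in the same formula.

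MiR-182 was the only member with a ΔCT below 10, the limit for testing, and therefore the only one in the main test. The mean ΔCT of controls was 9.80 ± 0.0700 (SD, n = 2), and that of depleted samples was 10.01 ± 0.187 (SD, n = 2). The log2 change was -0.21 (95% interval from -0.66 to 0.24 in limma), with an adjusted p of 0.417 from limma over the 80 miRNAs tested. So 0 of 1 members tested was called by limma, and 0 had an unadjusted p below 0.05 there. In the same limma fit, 26 of the 80 miRNAs had an adjusted p below 0.05 (32.5%), 20 higher (25%) and 6 lower (7.5%). A fit that leaves out 1 sample has 1 left in that group and takes its within-group spread from the other group alone. Without depleted 1 and without depleted 2, the standard error of miR-182 was 0.999 and 1.002, against 0.155 in the main fit. The miRNAs miR-126-3p, miR-34c, miR-214 and miR-152 had these same 2 values. Calls lost in those 2 fits therefore do not show a dependence on either depleted sample. For a single miRNA, permuting the labels of 2 and 2 samples (exact, two-sided) gives at least p = 0.333.

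The ΔCT of miR-182 did not overlap between the groups, with 9.75 and 9.85 in controls and 9.87 and 10.1 in depleted samples, but the CT before the U6 subtraction did. Among the 189 miRNAs with a CT below 35 in all samples, 48 (25.4%) were lower after depletion without overlap in ΔCT. The U6 CT on card A was lower after depletion by 0.151 cycles, and before it was subtracted the log2 change of miR-182 was -0.06. The mouse miRNAs whose 4 ΔCT values lay closest to those of miR-182 were let-7g, miR-26b and miR-186, with root mean square differences of 0.183, 0.228 and 0.234 cycles over the 4 samples.

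MiR-183 had a CT of 31.87 in control 1 and 32.96 in control 2, against 32.74 in depleted 1 and 33.0002 in depleted 2. Control 1 was the highest in level and the other samples lay together. Its ΔCT narrowly missed overlap between the groups, with 12.97 and 13.85 in controls and 13.88 and 14.16 in depleted samples. The CT itself overlapped. Of the 189 miRNAs with a CT below 35 in all samples, 25.4% were lower after depletion without overlap in ΔCT. The mean ΔCT was 13.4 ± 0.622 (SD, n = 2) in controls and 14.0 ± 0.197 (SD, n = 2) after depletion. The log2 change of -0.61 was smaller than the difference between the controls, 0.880, and in limma over all detected miRNAs the adjusted p was 0.438. Without control 1 the log2 change was -0.17. Controls had 9.10 ± 4.63 copies of miR-183 per cell (SD, n = 2) and depleted BASCs had 6.21 ± 0.775 (SD, n = 2), below miR-182 of the same cluster in each sample.

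MiR-96 behaved unlike both of its neighbours. It had a CT of 34.21 in control 1, 35.97 in control 2 and 30.79 in depleted 1, and no CT in depleted 2. The depleted samples thus stood on either side of the controls and lay 4.23 cycles apart in ΔCT with the ceiling. The log2 change was 1.56 over all samples and -0.56 without depleted 1, and its adjusted p was 0.628 in limma over all detected miRNAs. No change was resolved.

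MiR-203 gave no CT in any sample. MiR-205 gave a CT in control 2 alone, 35.97, above the limit. Neither was detected, and a level below that of a CT of 35 in either group would not be seen.

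The 3 members detected in all samples had log2 changes of -0.21, -0.61 and -0.34, where the median over the 130 card A mouse miRNAs detected in all samples was 0.41. The lower values held for these 3 with other references (U6 of both cards, or the mean of snoRNA135 and snoRNA202) and with median centring or quantile normalization. The 2 snoRNAs disagreed on card A. Their CT fall after depletion was 1.07 cycles for snoRNA135 and -0.17 cycles for snoRNA202, and neither was used alone. A change of reference or centring shifts all card A changes by the same amount. Each shift used here was downward, whereas snoRNA202 alone would shift the changes upward. Those references and centrings are thus no separate support for each member. The lower values did not hold for miR-200c without control 1. In the limma fit without the ΔCT limit, 0 of the 8 detected members and 2 of the 263 miRNAs (0.76%) had an adjusted p below 0.05, of which 1 was higher (0.38%) and 1 lower (0.38%). There, 1 member, miR-200a, had an unadjusted p below 0.05, with both depleted values at the ceiling.

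**Figure D2:**
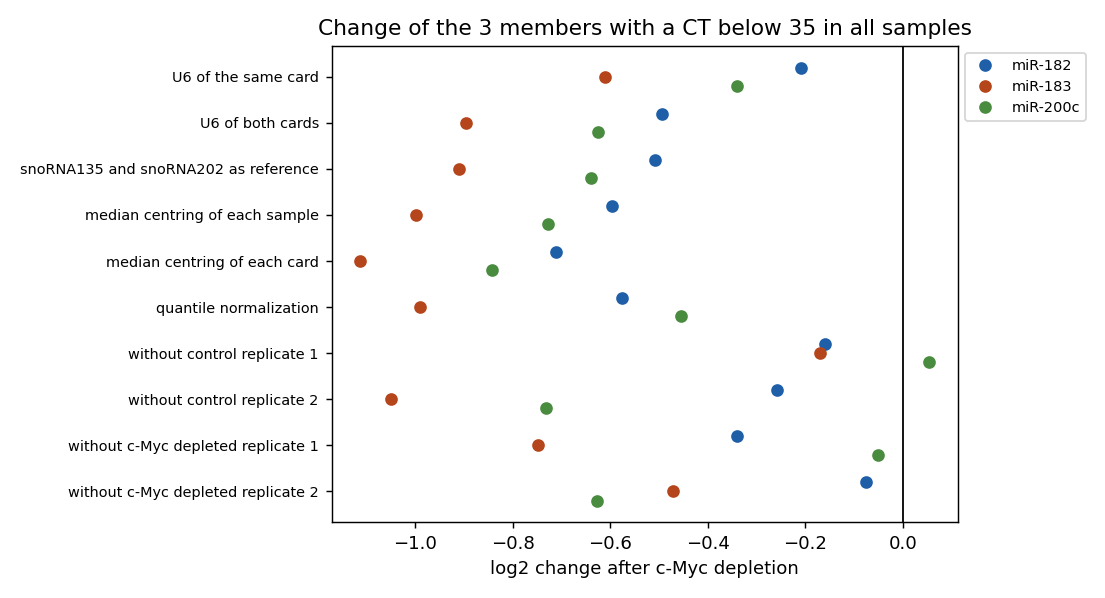
Log2 change after c-Myc depletion (x axis) of miR-182, miR-183 and miR-200c under 6 normalizations and with each sample left out in turn. The values lie between -1.11 and 0.05, and leaving out control 1 moves miR-183 to -0.17 and miR-200c to 0.05.

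Passenger strands give a further reading of the same hairpins. The table has 5 such assays for these families, on card B with 2 wells each. MiR-200b*, miR-200c* and miR-141* gave no CT in any well. MiR-200a* gave a CT of 33.9 in 1 of 2 wells of control 1 and none elsewhere. This is the sample in which miR-200a, from the same hairpin, was highest.

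MiR-183* was the passenger strand detected throughout, and it is shown with its seed because its signal exceeded that of the main strand:
miR-183*: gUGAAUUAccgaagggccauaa
The mean CT of its wells was 30.001 in control 1 and 31.65 in control 2, against 31.81 in depleted 1 and 31.51 in depleted 2, lower than the CT of miR-183 in each sample. The cards use separate reverse transcription pools, which the comparison of strands does not correct for. The ΔCT of miR-183* was 11.1 ± 0.955 (SD, n = 2) in controls and 12.7 ± 0.341 (SD, n = 2) after depletion, a log2 change of -1.56 with an adjusted p of 0.213 in limma over all detected miRNAs. The U6 CT on card B was lower after depletion by 0.722 cycles, and before it was subtracted the log2 change of miR-183* was -0.84. The ΔCT did not overlap between the groups, with 10.5 and 11.8 in controls and 12.9 and 12.4 in depleted samples. The same held for 25.4% of the miRNAs with a CT below 35 in all samples. Before the subtraction the groups overlapped, with the level in control 1 again the highest.

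The controls differed in these families. In the 4 members below 35 in both controls, the CT of control 2 was higher by 1.20 for miR-200a, 1.09 for miR-183, 0.999 for miR-200c and 0.310 for miR-182, with a median of 1.04 cycles. Over the 135 card A mouse miRNAs below 35 in both controls the median was -0.01 cycles. In the range of miR-183 and miR-200c, a mean CT between 32 and 34, the median difference in ΔCT between the controls was 0.436 cycles in size over 28 miRNAs. Of these 28, 18 had the lower CT in control 1, with a median shift of 0.169 cycles, a smaller shift in the same direction. For miR-183 and miR-200c, the controls differed from each other in ΔCT by more than the change after depletion, and for miR-200a and miR-182 by less.

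**Figure D3:**
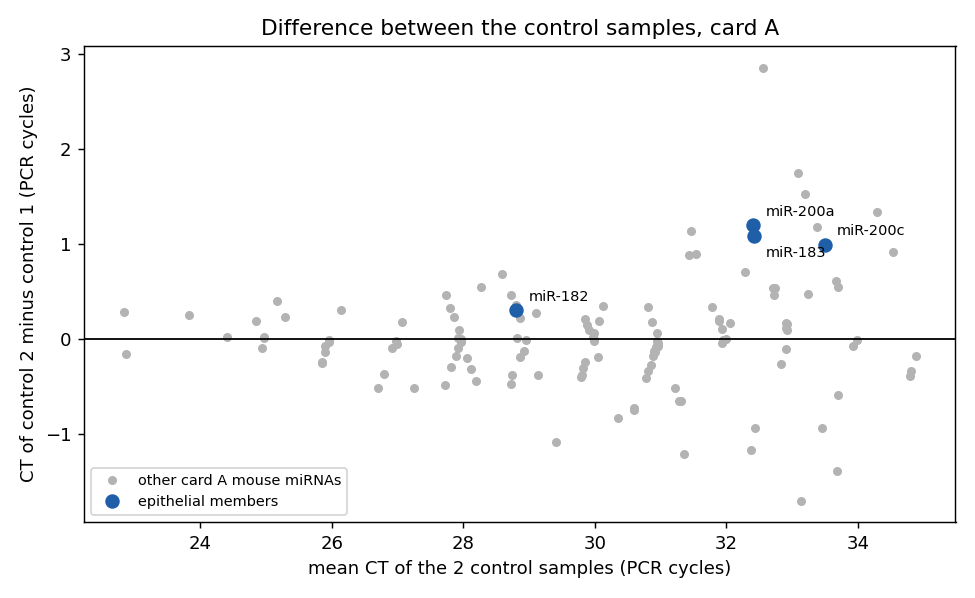
CT of control 2 minus CT of control 1 (y axis, PCR cycles) against their mean (x axis) for the 135 card A mouse miRNAs below 35 in both controls, with the 4 epithelial members in blue. The members lie above 0, from 0.310 to 1.20 cycles, and the others spread on both sides of it.

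Other low signals were also seen in control 1 alone. Of 27 mouse miRNAs below 35 in only 1 sample, 14 were in control 1, against 6, 4 and 3 in the other samples. The 14 included the members miR-200b, miR-429 and miR-141, the passenger strand miR-200a*, and miR-142-3p, miR-142-5p and miR-451, which are typical of blood cells. The assayed blood list of 5 miRNAs had 5 below 35 in control 1, 2 in control 2, and 1 and 2 in the depleted samples. Its summed level was 30.6 and 4.51 copies per cell in controls and 1.57 and 12.9 in depleted BASCs. MiR-150 and miR-223, the highest of the list by mean CT, were below 35 in 4 and 3 samples, while miR-142-3p, miR-142-5p and miR-451 were undetected in the other 3 samples. The sort excluded CD45pos cells, which are white blood cells. The part of such RNA in the values of the epithelial members was not tested.

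To place the epithelial members among other cell types, they were set beside lists of miRNAs typical of other cells. The summed level of the 10 members was 172 copies per cell in control 1, 107 in control 2, 143 in depleted 1 and 100.7 in depleted 2, and most of it was miR-182. The mesenchymal list had 9 of 11 assays detected, and its summed level was 3509 and 3527 copies per cell in controls and 5391 and 5202 in depleted BASCs. These copies are not normalized, and the sum over all 517 mouse miRNAs was also higher after depletion, with 51124 and 49203 in controls and 72528 and 67330 in depleted BASCs. Its highest miRNAs were miR-145, known from smooth muscle, with CT from 24.83 to 24.99, and miR-199a-3p, known from fibroblasts, with CT from 24.78 to 25.97. In the list, miR-127 and miR-382 were undetected. In bulk samples, fewer cells of a type and less RNA per cell cannot be told apart.

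Of 7 mesenchymal miRNAs in the main limma test, 2 were higher after depletion and 0 lower, where 25% of all 80 tested were higher. MiR-214 had a log2 change of 1.02 (adjusted p = 0.0115) and miR-152 of 0.86 (adjusted p = 0.0224). Both calls were lost with the replicate block (adjusted p = 0.0686 and 0.0967), with centring, with quantile normalization and without either depleted sample, and they held in 9 and 8 of 18 alternatives. MiR-199a-5p was uneven within groups, with CT 28.5 and none below 35 in controls, and none below 35 and 30.04 after depletion. The fibroblasts used as feeder cells are of this cell type. Their part in the values was not tested.

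Of 6 other assays linked to lung or ciliated epithelium, miR-31 and miR-34b-3p had a lower mean CT than miR-182, the most abundant member. The summed level of these 6 was 1837 and 1849 copies per cell in controls and 2457 and 1729 in depleted BASCs, without normalization. MiR-31, found in many epithelia, had CT from 24.84 to 24.98 in the 4 samples. MiR-34b-3p, of the miR-34 family found in ciliated cells, had CT 27.0, 26.9, 25.7 and 29.9. MiR-375, typical of neuroendocrine cells, was below 35 in 1 sample of each group, and miR-449a, typical of ciliated cells, in both controls and depleted 1. Of the 3 tested, 1 was higher after depletion in limma and 0 lower, miR-34c with a log2 change of 1.97 (adjusted p = 0.0106), against 25% of all tested. The call held in 11 of 18 alternatives and was lost with the replicate block (adjusted p = 0.0650), with centring and with quantile normalization. It was also lost in limma without the ΔCT limit (adjusted p = 0.0659). The fits without depleted 1 and without depleted 2 also did not call miR-34c, with log2 changes of 1.96 and 1.99.

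The endothelial miR-126-3p had a CT of 28.8 in both controls and 30.7 and 31.0 in depleted BASCs, and was lower after depletion, with a log2 change of -2.18 (adjusted p = 0.0106), where 7.5% of all tested miRNAs were lower. This call held in 13 of 18 alternatives and was lost with the replicate block (adjusted p = 0.0650) and without either depleted sample (0.367 and 0.790). MiR-126-5p was detected near the limit in all samples. The sort excluded CD31pos cells, which include endothelium. None of the 12 pluripotency miRNAs was below 35 in any sample. The proteins that define BASCs (SP-C, CCA) are not measured by these cards. The study stained its cultured cells for both proteins and reported them in most colonies, also after repeated passage. From the card values alone, the cell type label could be set only beside these miRNA lists.

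**Figure D4:**
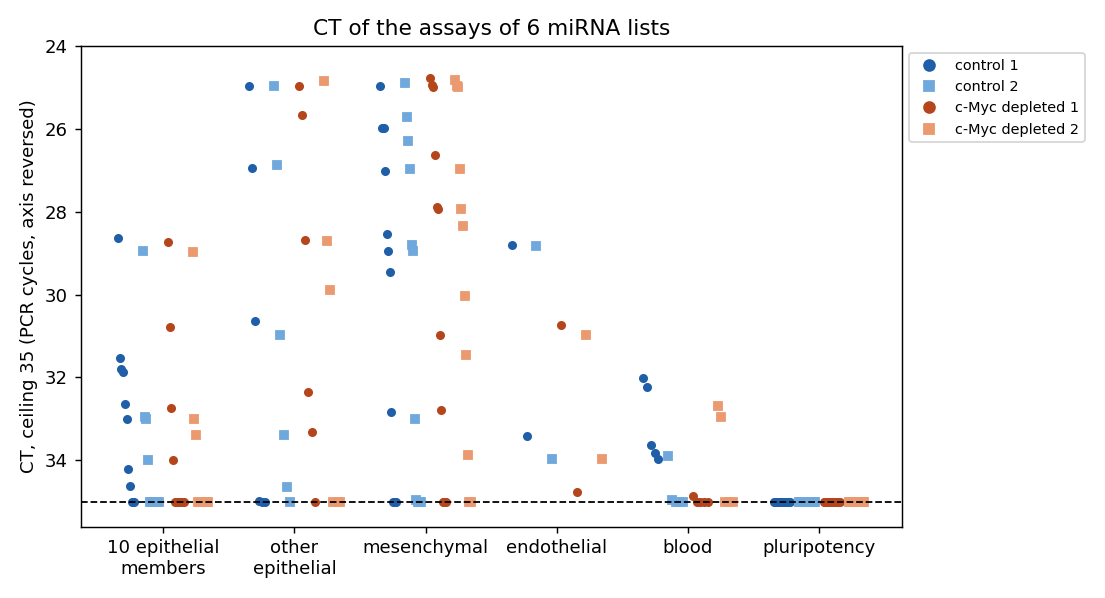
CT with a ceiling of 35 (PCR cycles, axis reversed) of each assay of the 6 miRNA lists in the 4 samples; the dashed line is the ceiling, where undetected assays lie. Among the 10 epithelial members miR-182 alone is near 29 in every sample, while mesenchymal miRNAs and miR-31, of the other epithelial list, reach 24.8.

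The CT values were not spread evenly between whole cycles, which bears on differences of less than 1 cycle. Of all 1366 CT values, 604 (44.2%) had a decimal part of 0.9 or more. The share was 42.5% and 47.9% in controls 1 and 2, and 31.7% and 54.5% in depleted 1 and 2. Of the 24 CT values of the members, 10 (41.7%) were of this kind, among them 3 of the 4 values of miR-200c and 4 of the 5 values above 35. How such values arose was not tested. No CT of a member had more than 6 decimals, whereas CT values of miR-214, miR-34b-3p, miR-34c and miR-126-3p in depleted samples did.

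**Figure D5:**
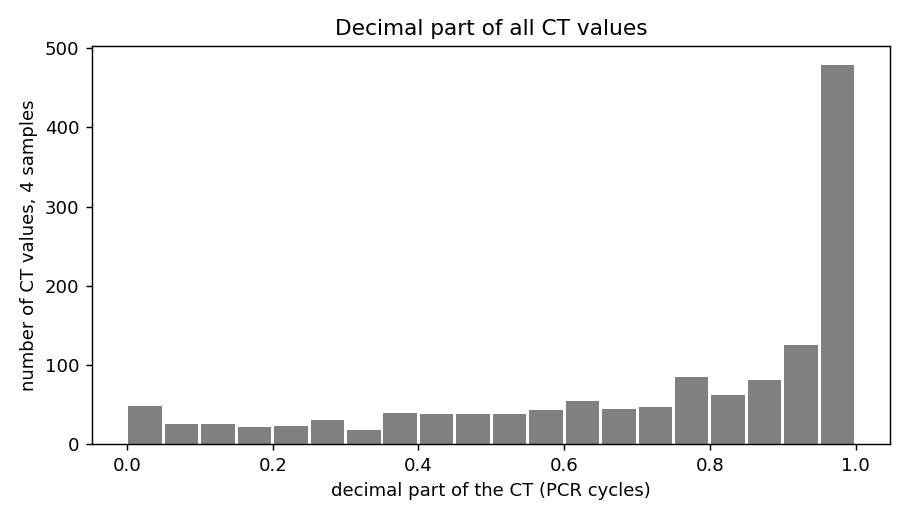
Number of CT values (y axis, all wells of the 4 samples) by decimal part of the CT (x axis, bins of 0.05 cycles). The values pile up just below whole cycles, with 604 of 1366 at a decimal part of 0.9 or more.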

How the data were processed

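RNA was reverse transcribed in multiplexed pools and run on 2 TaqMan low density array cards of 384 wells per sample. The deposited values are raw CT in PCR cycles, a log2 scale running downward, and the authors took them from the cycler without normalization. Partek 6.4 is named in the submitters' processing notes. Here CT above 35 or missing was set to 35, wells of an assay were averaged, and ΔCT was CT minus the mean U6 CT of the same card. Log2 change was control minus depleted mean ΔCT, so that positive values are higher after depletion. The 80 mouse miRNAs with a lowest ΔCT below 10 were tested with limma 3.58.1 (R 4.3.3) and Benjamini-Hochberg adjustment at 0.05. On simulated data with 100 of 400 miRNAs changed by 1.5 on the log2 scale, limma called 79.6% of them, with 3.84% false calls. The simulated miRNAs were independent, with no ceiling and no error of normalization, so these shares do not carry over to the calls made here. Alternatives were other references, centring, quantile normalization, ceilings, filters, the replicate block and leaving out each sample. The rule for named miRNAs was all 10 members, their passenger strands, those nearest to miR-182 in ΔCT, and the 2 highest of each list. Other list miRNAs were named after their values were seen. The members and lists were chosen with earlier results of these data known. Counting depth has no meaning for CT values, and their number of samples limits the precision.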

Additional observations from a re-analysis of the deposited data

How the results depend on the processing

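With 2 samples a group, 1 well per member and CT close to the limit, changes in the members other than miR-182 could be seen only if large. MiR-182, the only member tested in most alternatives, was called by limma in none of them, and without the ΔCT limit 0 of 8 members tested were called. For miR-182 the log2 change ranged from -0.71 to -0.08 and the adjusted p from 0.0917 to 0.997. Its unadjusted p was below 0.05 with U6 of both cards and with quantile normalization.

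The count of called miRNAs, 26 of 80 with 76.9% of them higher, was 3 (33.3% higher) with median centring of each sample, 1 (0% higher) with median centring of each card, 14 (85.7%) with U6 of both cards, 4 (0%) with quantile normalization, 18 (66.7%) with snoRNA135 and snoRNA202, 2 (50%) without the ΔCT limit, and 3 (100%) by one-way ANOVA. Leaving out 1 sample gave from 0 to 28, with 1 without depleted replicate 1 and 0 without depleted replicate 2. With the replicate number as a block it was 0, with 26 at an unadjusted p below 0.05. The labels do not say what a shared number means. The replicate differences of the groups correlated at -0.44 over the 80 miRNAs, and the crossed pairing, added after seeing the data, called 33, of which 0 were members.

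The 8 detected members became 5 at a CT limit of 32, 3 when all samples were required, 9 with any CT, and from 5 to 8 with 1 sample left out (5 without control replicate 1). The 16 mesenchymal, endothelial and blood miRNAs detected became 9 and 11 with the first 2 of these limits. The median log2 change of the 8 detected members, -0.47, rests on the ceiling, was -0.98 with centring of each card, and ranged from -0.89 to -0.21 with 1 sample left out. Without a ceiling a change could be computed for only 4 members. The causes were not tested.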
